A study of Mus musculus with 4 samples.

Results

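The PI3K, AKT and mTOR pathway was followed through 9 of its genes in lymph node cells of mice given EVs from induced pluripotent stem cells (iPSC EVs). The genes are Pik3cd and Pik3r1 (PI3K subunits), Pik3ip1 (a PI3K inhibitor), Akt1, Mtor and Rptor (kinases and a subunit of mTOR complex 1), Foxo1 (a transcription factor under AKT control), and Ddit4 and Tsc2 (brakes on mTOR complex 1). They are 9 of 32285 genes in the count matrices and were chosen by name, with earlier results of these data known. Each was measured in Tregs, B cells and CD4 and CD8 T cells, which were gated cell by cell on UMIs of marker genes. A UMI tags 1 captured mRNA molecule, so that copies of it are counted once.

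Wild-type C57BL/6 mice received 100 µg of iPSC EVs in total under the skin (EV, 2 libraries) or were controls (Control, 2 libraries). The series description places the harvest of the draining lymph nodes at day 5, and the study's methods name PBS as the control injection, whereas the sample labels record 24 h and no treatment of the controls. EVs are small vesicles shed by cells, and those used here came from human iPSCs, so mouse cells received human vesicles. The libraries were described as biological replicates, and the number of animals behind each was not stated. With nothing more on their origin, the p-values measure only the spread between these libraries. The cell classes come from the same libraries and are not independent of each other.

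PI3K turns receptor signals into a membrane lipid that recruits and activates AKT. AKT then relieves mTOR complex 1 of its TSC brake, which drives protein synthesis and growth, and it keeps FOXO1 out of the nucleus. In resting lymphocytes FOXO1 maintains the naive state and genes of homing and survival, and the delta isoform of PI3K is the one that antigen and costimulatory receptors mainly use. These steps act on proteins and lipids, which mRNA levels do not measure.

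The deposited libraries held 8297 to 9000 cell barcodes and 50749656 to 70418672 UMIs, and 32725 of 34323 barcodes passed the cell filter. Between pairs of libraries, 12 to 26 barcode sequences were shared. The sum of a class held 13403975 to 31173989 UMIs in B cells, 8017590 to 11841707 in CD4 T cells, 10402929 to 16751543 in CD8 T cells and 1046546 to 1565747 in Tregs, which numbered only 117 to 213 cells a library. The B cell gate held 3016 and 2503 cells in Control libraries 1 and 2 against 4866 and 4301 in EV libraries 1 and 2. In the same order CD4 T cells numbered 1383 and 1624 against 923 and 1267, and CD8 T cells 1682 and 1861 against 1003 and 1355. Depth moved with the groups, since the median B cell held 4142 and 4905 UMIs in Control against 5811 and 5615 in EV libraries, and both EV libraries were also the deeper ones in the other 3 classes. The EV libraries differed from each other: edgeR's quasi-likelihood test called 338 genes in B cells, but 2584 (19.6% of all genes) when EV library 1 was left out and 946 (7.18%) when EV library 2 was. Leaving out EV library 1 gave 16.5% of all genes in CD4 T cells and 16.9% in CD8 T cells. In the B cell gate 7 B cell markers summed to at least 10186 CPM (UMIs of a gene per 1000000 UMIs of the class). They summed to at most 40.7 CPM in the CD4 and CD8 gates, which bar Cd79a. In these 2 gates 6 T cell markers summed to at least 3830 CPM. The Treg gate was less clean, with 663, 150, 744 and 870 CPM of B cell markers in Control libraries 1 and 2 and EV libraries 1 and 2. Its 2 CD8 T cell markers were at 109, 171, 81.2 and 64.0 CPM in the same order. The 6 Treg markers, which include the gating gene Foxp3, summed to between 3455 and 4360 CPM. In the B cell gate 7 macrophage and monocyte markers were at 240 and 266 (Control 1 and 2) against 311 and 272 CPM (EV 1 and 2). In the CD8 gate 6 NK cell markers were at 462 and 481 against 607 and 558 CPM in the same order. In the CD4 gate 5 proliferating cell markers were at 71.1 and 22.7 against 14.2 and 21.4 CPM. They were at 146 and 45.2 against 45.9 and 38.8 CPM in the Treg gate. The B cell gate held 19.5 and 41.9 against 35.2 and 32.6 CPM of them. The CD8 gate held 27.2 and 17.8 against 20.9 and 10.3 CPM. In the B cell gate the 6 T cell markers were at 96.2 and 83.3 (Control 1 and 2) against 47.8 and 48.8 CPM (EV 1 and 2), and 3 of them fell (Cd3g, Trac and Trbc2). Other single markers also passed edgeR's test. In B cells Lyz2 (myeloid) and Xbp1 (plasma cells) rose and Cd8b1, Ikzf2 and the early response gene Egr1 fell, in CD4 T cells Eomes rose, and in CD8 T cells Eomes rose and Mki67 and Egr1 fell. Their part in the results of those classes was not tested.

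Promoter sequences are shown for Ddit4 and Foxo1, because Ddit4 had the largest fold change of the 9 genes in B, CD4 T and CD8 T cells, and Foxo1 was the gene whose EV effect differed between classes. Each is the 250 bases upstream of the RefSeq transcription start (build GRCm38.p6), written 5′ to 3′ on the strand of the gene. Capitals mark matches on either strand. The motifs were ACGTG, which is the core of the hypoxia element, the box CCAAT, and the SP1 site with the letters GGGCGG. The Ddit4 window is chr10:59951771-59952020 on the minus strand, and the Foxo1 window is chr3:52268087-52268336 on the plus strand.
Ddit4: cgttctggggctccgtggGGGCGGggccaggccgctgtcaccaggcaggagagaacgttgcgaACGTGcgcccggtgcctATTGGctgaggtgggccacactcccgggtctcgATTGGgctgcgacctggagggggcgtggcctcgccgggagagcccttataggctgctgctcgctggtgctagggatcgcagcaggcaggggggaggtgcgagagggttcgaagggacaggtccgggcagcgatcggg
Foxo1: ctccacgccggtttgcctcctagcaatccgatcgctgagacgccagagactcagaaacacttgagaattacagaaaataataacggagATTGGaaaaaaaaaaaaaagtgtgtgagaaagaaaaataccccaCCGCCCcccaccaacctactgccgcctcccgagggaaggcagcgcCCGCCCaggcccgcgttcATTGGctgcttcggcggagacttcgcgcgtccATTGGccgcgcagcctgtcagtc
The Ddit4 window held 1 ACGTG match, 2 CCAAT matches and 1 GGGCGG match, and its GC content was 70%. The Foxo1 window held 3 CCAAT and 2 GGGCGG matches with no ACGTG match, and its GC content was 56%. Of 13 windows of the 9 genes, ACGTG lay in 3, 1 each of Ddit4, Pik3cd and Rptor, against 16.6% of all 32851 windows of the same length. CCAAT occurred in 5 of the 13 windows (33.8% of all windows). GGGCGG occurred in 7 of the 13, which belong to 6 genes (32.7% of all windows). GTAAACA, the core that FOXO factors bind, occurred in 1 Akt1 window (3.17% of all windows) and TATAAA in 1 Pik3r1 window (12.4%). GAANNTTC (6.69% of all windows) and TGACGTCA (1.55%) had no match in any of the 13. These matches describe letters in the windows and are not binding sites.

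None of the 9 genes passed the test in any class. In B cells 0 of 9 had an adjusted p under 0.05 in edgeR's quasi-likelihood test, where 2.55% of 13270 genes did, and in CD4 T cells 0 of 9 did, where 1.09% of 11933 genes did. The background was 2.2% of 12284 genes in CD8 T cells, again with 0 of 9, and 0.124% of 8876 genes in Tregs, with 0 of the 8 genes that passed the filter on low counts. Tsc2, at 5 to 12 UMIs a library, was the one not tested in Tregs. At an unadjusted p under 0.05 there were 4 in B cells (Ddit4, Pik3cd, Pik3ip1 and Rptor), 1 in CD4 T cells (Ddit4), 3 in CD8 T cells (Ddit4, Pik3cd and Rptor) and 0 in Tregs, and all of these were higher in EV libraries. Over all genes tested, 18.9%, 16.7%, 18.2% and 7.57% had such a p. DESeq2 called 2 in B cells (Pik3cd and Ddit4), where it called 3.47% of all genes, and 0 in CD4 and CD8 T cells (1.32% and 1.34%). In Tregs (0.18%) it called 0 of the 2 genes to which it gave an adjusted p, Pik3cd and Foxo1, and gave none to the other 6.

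Control and EV libraries did not overlap for 6 of 9 genes in B cells, where 51.8% of all genes did not overlap either. The count was 4 of 9 in CD4 T cells (49.4% of all genes), 5 of 9 in CD8 T cells (49.7%) and 1 of 8 in Tregs (37.1%). Of all genes, 25.6%, 24.2%, 24.4% and 18.4% lay wholly higher in EV libraries and 26.2%, 25.2%, 25.3% and 18.7% wholly lower, in the same order of classes. The median log2 fold change of the 9 genes was 0.21 in B cells, 0.03 in CD4 T cells and 0.09 in CD8 T cells, and that of the 8 in Tregs was 0.03. The median of all genes tested was between -0.0016 and 0.0027 in the 4 classes. Pik3ip1, Mtor, Rptor, Foxo1 and Tsc2 overlap annotated genes on the other strand, and whether the counting used strand is not given in the sources used here.

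**Figure D1:**
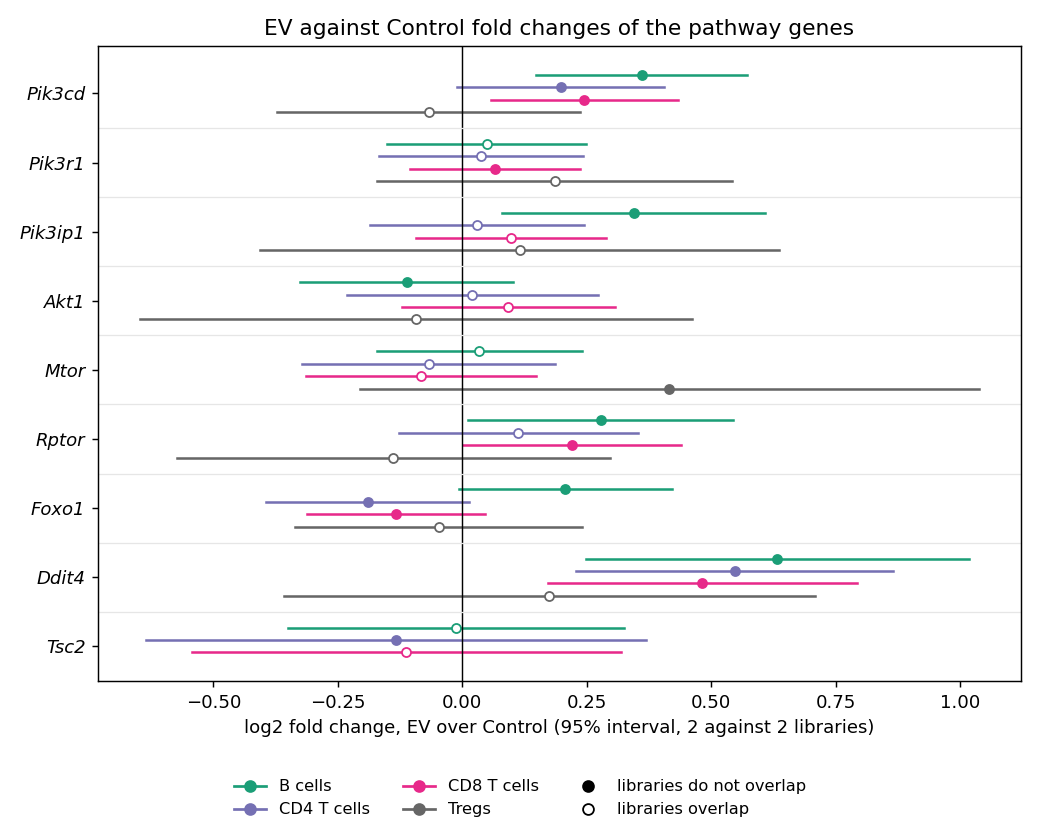
Log2 fold change of EV over Control for each of the 9 genes in each class, with its 95% interval from the edgeR fit of 2 against 2 libraries; filled points mark genes whose libraries do not overlap between groups. Ddit4 lies furthest to the right in B, CD4 T and CD8 T cells (0.63, 0.55 and 0.48), Foxo1 lies right of 0 in B cells and left of 0 in CD4 and CD8 T cells, and Tsc2 has no point in Tregs because it was not tested there.

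Pik3cd (chr4:149649168-149702571, minus strand; this and the other gene positions are from GENCODE release 21 on GRCm38) encodes p110 delta, the catalytic PI3K subunit of leukocytes. In B cells it was at 139 and 153 (Control 1 and 2) against 195 and 180 CPM (EV 1 and 2). The log2 fold change was 0.36 (SE 0.09, edgeR quasi-likelihood test, adjusted p = 0.086), 1.28-fold, and both EV libraries were above both Control libraries. In CD8 T cells the level was 322 CPM in each Control library against 366 and 398 CPM in EV libraries, with a log2 fold change of 0.24 (SE 0.09, adjusted p = 0.17 in the same test). In CD4 T cells it was 228 and 235 CPM against 252 and 278 CPM (log2 0.20). These 3 classes, which come from the same libraries and are not independent, had the same order. Tregs did not: 248 and 249 (Control 1 and 2) against 248 and 226 CPM (EV 1 and 2, log2 -0.07), with overlap. Whether Pik3cd passed depended on the libraries kept and on other settings. Without EV library 1 it did in B, CD4 T and CD8 T cells (log2 0.30, 0.28 and 0.31), and without EV library 2 it did in B cells (log2 0.41). In these fits the lone EV library was assumed to vary like the Control libraries, and more of all genes were called, as given above. With cells thinned to 1000 UMIs after gating, and cells with fewer left out, the B cell value was 0.44. It passed there (edgeR adjusted p = 0.036), where 3.06% of all genes did. With all 4 libraries Pik3cd also passed in B cells in DESeq2 (adjusted p = 0.030), where 3.47% of all genes did. In edgeR it passed there without the filter on low counts and with the library number as a block (adjusted p = 0.0037 and 0.038). In those 2 settings 6.44% and 8.91% of all genes passed.

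Pik3r1 (chr13:101680563-101768217, minus strand) encodes the p85 alpha regulatory subunit, which stabilizes the catalytic subunit and binds receptors. Its level in B cells was 115 and 118 (Control 1 and 2) against 114 and 126 CPM (EV 1 and 2), with overlap. The CD4 T cell log2 fold change was 0.04 with overlap, and in CD8 T cells it was 0.07 (SE 0.08) without. Tregs gave 0.19 (SE 0.17) with overlap. All 4 intervals for this gene included 0, and the widest, in Tregs, ran from -0.17 to 0.54.

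Pik3ip1 (chr11:3330401-3342971, plus strand) encodes a membrane protein that inhibits PI3K. In B cells it was at 40.5 and 47.8 (Control 1 and 2) against 60.8 and 51.2 CPM (EV 1 and 2), with a log2 fold change of 0.34 (SE 0.12, edgeR quasi-likelihood test, adjusted p = 0.17). Both EV libraries were above both Control libraries. With all 4 libraries Pik3ip1 passed in B cells without the filter on low counts and with the library number as a block (edgeR adjusted p = 0.0051 and 0.038). In those 2 settings 6.44% and 8.91% of all genes passed. It did not pass in DESeq2 (adjusted p = 0.25) or with thinned cells (edgeR adjusted p = 0.39). The log2 fold change was 0.46 without EV library 2 and 0.22 without EV library 1. In CD4 T, CD8 T and Treg gates the libraries overlapped, with log2 fold changes of 0.03, 0.10 and 0.12.

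Akt1 (chr12:112653821-112674884, minus strand) encodes the AKT1 kinase. In B cells it was at 25.6 and 24.5 (Control 1 and 2) against 22.7 and 23.6 CPM (EV 1 and 2), the only one of the 9 genes for which both EV libraries of that class were below both Control libraries. The log2 fold change was -0.11 (SE 0.09). In the other classes the libraries overlapped and log2 fold changes were 0.02 in CD4 T cells, 0.09 in CD8 T cells and -0.09 in Tregs.

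Mtor (chr4:148448611-148557683, plus strand) encodes the mTOR kinase, and Rptor (chr11:119602905-119899576, plus strand) encodes RAPTOR, which brings substrates to mTOR complex 1. Mtor differed little in B, CD4 T and CD8 T cells, with log2 fold changes of 0.03, -0.07 and -0.08 and overlapping libraries. In Tregs it was at 20.8 and 33.5 (Control 1 and 2) against 34.9 and 36.8 CPM (EV 1 and 2), with a log2 fold change of 0.42 (SE 0.29). These Treg levels rested on 32 to 44 UMIs a library, and the interval ran from -0.21 to 1.04. Rptor in B cells was at 65.5 and 67.0 (Control 1 and 2) against 70.7 and 90.1 CPM (EV 1 and 2), so that EV library 2 was high and EV library 1 was close to Control. Its log2 fold change of 0.28 (SE 0.12) became 0.44 without EV library 1 and 0.09 without EV library 2. CD8 T cells had the same pattern, with 84.1 and 86.9 CPM in Control against 88.1 and 111 CPM in EV libraries. There the log2 fold change was 0.22 (SE 0.10), and without EV library 1 it was 0.38. The CD4 T cell libraries overlapped (log2 0.11, and 0.26 without EV library 1). Rptor passed in all 3 of these classes without EV library 1, a fit that also called more of all genes, as given above. In Tregs the value was -0.14 with overlap.

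Foxo1 (chr3:52268336-52353221, plus strand) encodes the factor that AKT switches off, and its libraries separated in opposite directions in B and T cells. In B cells it was at 302 and 317 (Control 1 and 2) against 358 and 356 CPM (EV 1 and 2), with a log2 fold change of 0.21 (SE 0.09, edgeR quasi-likelihood test, adjusted p = 0.28). In CD4 T cells it was at 404 and 389 (Control 1 and 2) against 349 and 347 CPM (EV 1 and 2, log2 -0.19, SE 0.09, edgeR adjusted p = 0.33). In CD8 T cells it was at 301 and 304 CPM against 270 and 282 CPM (log2 -0.13, SE 0.08, edgeR adjusted p = 0.41). Neither direction passed the test within a class. In Tregs it was at 398 and 437 CPM against 399 and 408 CPM, with overlap.

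Ddit4 (chr10:59949669-59951834, minus strand) encodes REDD1, which restrains mTOR complex 1 under hypoxia, energy stress and glucocorticoids. In B cells it was at 17.3 and 25.3 (Control 1 and 2) against 36.3 and 29.8 CPM (EV 1 and 2), with a log2 fold change of 0.63 (SE 0.17, edgeR quasi-likelihood test, adjusted p = 0.093), 1.55-fold. In CD4 T cells it was at 47.9 and 66.4 CPM against 91.6 and 76.7 CPM (log2 0.55, SE 0.14, edgeR adjusted p = 0.10). In CD8 T cells it was at 30.4 and 46.0 CPM against 53.5 and 54.1 CPM (log2 0.48, SE 0.14, edgeR adjusted p = 0.11). In all 3 classes both EV libraries were above both Control libraries, and Control library 1 was the lowest of the 4. Since the classes share these libraries, they are not independent of each other. Without Control library 1 the log2 fold change was 0.39, 0.34 and 0.23, and Ddit4 passed in no class, whereas without Control library 2 it was 0.93, 0.82 and 0.82. Without the filter on low counts Ddit4 passed in these 3 classes (edgeR adjusted p = 2.9e-07, 4.8e-05 and 0.00018), where 6.44%, 3.89% and 4.24% of all genes did. With the library number as a block it passed in them too (edgeR adjusted p = 0.00047, 1.1e-05 and 7.7e-06). In that setting 8.91%, 6.6% and 8.29% of all genes passed. With cells thinned to 1000 UMIs the B cell value was 0.83 and passed (edgeR adjusted p = 0.0093), and those of CD4 and CD8 T cells did not. Without any one of the other 3 libraries it passed in each of these classes, with the lone library of a group assumed to vary like the other group. In B, CD4 T and CD8 T cells the log2 fold change was 0.48, 0.42 and 0.49 without EV library 1. It was 0.77, 0.67 and 0.47 without EV library 2. Fits without an EV library also called more of all genes in these classes. In Tregs it was at 52.5 and 70.1 CPM against 87.3 and 51.1 CPM, so EV library 1 was high and EV library 2 low, and the log2 fold change was 0.17 (SE 0.25).

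Tsc2 (chr17:24595816-24632630, minus strand) encodes tuberin, the part of the TSC complex that switches off RHEB. It rested on 113 to 268 UMIs a library in B cells and 42 to 96 in CD4 and CD8 T cells. The log2 fold change was -0.01 in B cells, -0.13 in CD4 T cells and -0.11 in CD8 T cells, with SEs of 0.15, 0.23 and 0.20. The CD4 libraries did not overlap and the others did. The CD4 interval ran from -0.64 to 0.37.

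**Figure D2:**
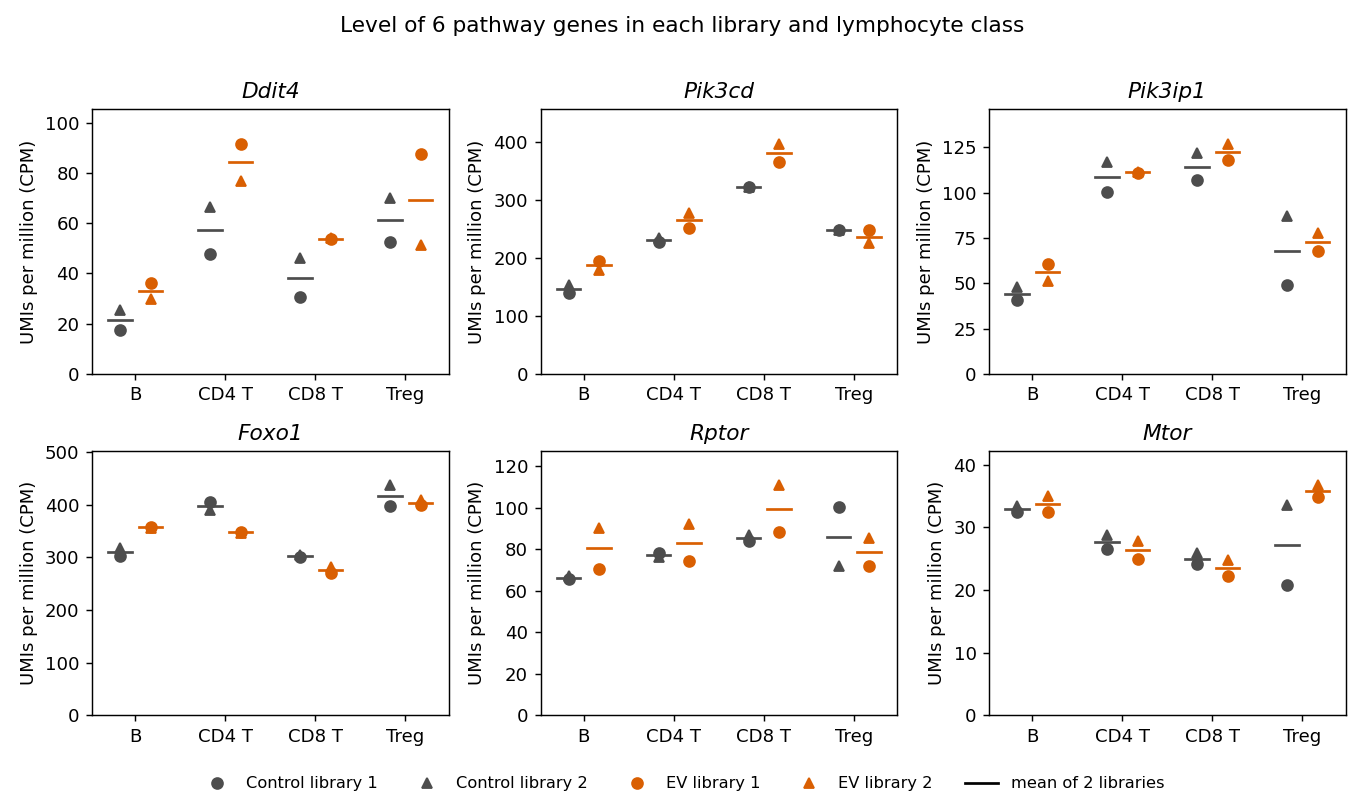
Level in CPM of 6 of the 9 genes in each of the 4 libraries, by class; circles are library 1, triangles library 2, and bars the mean of 2 libraries. Ddit4 and Pik3cd are higher in both EV libraries in B, CD4 T and CD8 T cells, whereas Foxo1 is higher in B cells (358 and 356 CPM against 302 and 317) and lower in CD4 T cells (349 and 347 CPM against 404 and 389).

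Whether the EV effect itself differed between classes was tested over 16 class sums, with Treg cells taken out of the CD4 and CD8 gates and library as a block. Foxo1 was the 1 gene of the 9 that passed, in both contrasts with B cells. Its EV effect was higher in B cells than in CD4 T cells by 0.40 on the log2 scale (SE 0.07, 95% interval 0.26 to 0.54, edgeR adjusted p = 0.0013), where 1.7% of 14087 genes passed. It was higher in B cells than in CD8 T cells by 0.33 (SE 0.07, 95% interval 0.19 to 0.47, edgeR adjusted p = 0.010), where 1.49% of genes passed. Stricter gates required more than 1 Cd79a UMI and none of Cd3e, Cd3d, Cd3g or Trac in B cells, and did not bar Trbc2. In T cells they required none of 4 B cell and myeloid markers. With these gates the differences were 0.43 and 0.32 and both passed. They were 0.41 and 0.32 without Scrublet doublets and 0.41 and 0.33 without cycling or plasma cells, and passed there too. The stricter gates and the removal of cycling or plasma cells were added to this test after seeing the data.

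Whether the Foxo1 difference passed depended on the libraries kept and differed between contrasts with thinned cells. Without Control library 1 it was 0.34 and 0.31 and passed in neither contrast (edgeR adjusted p = 0.091 and 0.12), where 0.642% and 0.73% of all genes passed. The contrast with CD8 T cells was also lost without Control library 2 (0.35, edgeR adjusted p = 0.062) and without EV library 1 (0.29, edgeR adjusted p = 0.075). With cells thinned to 1000 UMIs the B minus CD4 difference was 0.32 and did not pass (edgeR adjusted p = 0.18), while the B minus CD8 difference was 0.40 and did (edgeR adjusted p = 0.033), where 0.649% and 0.727% of all genes passed. Its sign was kept in all of these settings. The T cell markers in the B cell gate, given above, were lower in EV libraries, which also held more B cells and fewer CD4 and CD8 T cells. The part of these cell numbers and of depth in the marker levels was not tested. The part of the markers in the B cell value was tested only through the stricter gates.

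The EV effect on Foxo1 in CD8 T cells differed from that in CD4 T cells by 0.08 (95% interval -0.07 to 0.22) and in Tregs by 0.19 (0.01 to 0.37), and neither passed the test (edgeR adjusted p = 1 and 0.70). Of 14087 genes, 0.114% and 0.149% passed in these contrasts. At an unadjusted p under 0.05 the Treg minus CD4 contrast also held Mtor (0.56, SE 0.24) and the B minus CD4 contrast Pik3ip1 (0.31, SE 0.12). Such a p was found for 990 and 1433 of 14087 genes in these 2 contrasts. Mtor in Tregs rested on 32 to 44 UMIs a library. For Ddit4, whose groups were apart in 3 classes, the B minus CD4 difference was 0.05 (95% interval -0.20 to 0.31) and the B minus CD8 difference 0.11 (-0.15 to 0.37). For Pik3cd these differences were 0.15 (-0.03 to 0.33) and 0.11 (-0.07 to 0.28).

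**Figure D3:**
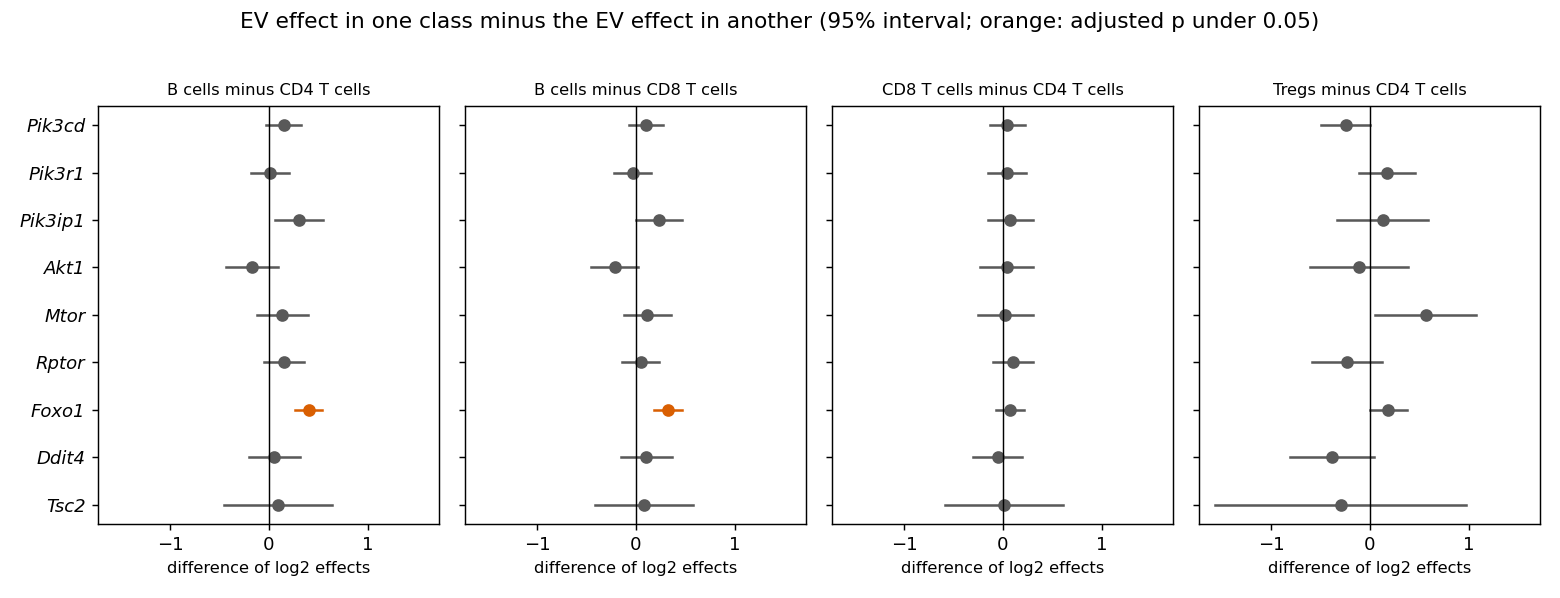
Difference of the EV effect between 2 classes (log2 units, 95% interval) for each of the 9 genes in 4 contrasts; orange marks an adjusted p under 0.05. Foxo1 is the only orange point, at 0.40 for B minus CD4 T cells and 0.33 for B minus CD8 T cells.

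The order of the classes by Control level differed between the genes (levels were scaled within each class, so the order is a description). Pik3cd was highest in CD8 T cells (mean 322 CPM ± 0.22, SD, n = 2), followed by Tregs (248), CD4 T cells (231) and B cells (146 ± 9.8), with no overlap between neighbours. Ddit4 was highest in Tregs (61.3 ± 12.5 CPM) and CD4 T cells (57.1 ± 13.1), which overlapped, and was lower in CD8 T cells (38.2 ± 11.0) and lowest in B cells (21.3 ± 5.7). Pik3ip1 was 2.59 times higher in CD8 T cells (114 CPM) than in B cells (44.2 CPM), and its CD8 and CD4 levels overlapped.

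Foxo1 in Control libraries was highest in Tregs (417 ± 27.8 CPM) and CD4 T cells (397 ± 11.0), which overlapped, and lower in B cells (310 ± 10.2) and CD8 T cells (303 ± 2.3), which also overlapped. In EV libraries the B cell level (357 ± 1.3 CPM) lay above the CD4 level (348 ± 1.4), the reverse of Control. Mtor had its highest Control mean in B cells (33.0 CPM), although the Treg range of 20.8 to 33.5 CPM overlapped it, and in EV libraries Tregs were highest (35.8 CPM against 33.8 in B cells). Tsc2, ranked in 3 classes because it was not tested in Tregs, was highest in B cells (8.8 CPM). In Control libraries Pik3r1, Akt1 and Rptor were highest in Tregs and lowest in B cells, with ratios of 1.48, 1.37 and 1.30 between these, and the Treg range of Pik3r1 and Rptor overlapped that of the next class. In EV libraries Rptor was highest in CD8 T cells (99.4 CPM) and lowest in Tregs (78.5 CPM), with overlap between all neighbours.

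The genes most like 8 of the 9 across the 16 class sums (Tsc2 was not tested in Tregs and was left out) were found by Pearson's r of log2(CPM + 1) among 8709 genes tested in all 4 classes. Sums of 1 library share its cells and depth, and the differences between classes dominate these values. Pik3cd was most like Tpst2 and Sntb2 (r = 0.97 and 0.96), Pik3r1 like Fbxo25 and Ppp2r5c (0.96 and 0.95), and Akt1 like Akap13 and Isoc2b (0.93 and 0.93). Pik3ip1 was most like the ribosomal protein genes Rpl13a and Rps4x (0.97 and 0.96). Mtor went with Gm28417 and Psma1 (0.93 and 0.91), Rptor with Xrn1 and Kcnq1ot1 (0.91 and 0.89), Foxo1 with Tmem131 and Slc38a6 (0.92 and 0.91) and Ddit4 with Pdcl3 and Atp5c1 (0.96 and 0.95). Among the members, Pik3cd and Pik3ip1 were the most alike pair (r = 0.83), and Pik3cd and Mtor the least (r = -0.65).

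The wider pathway was read from 12 lists that hold 115 genes. The lists were chosen with earlier results of these data known, so their shares beside those of all genes are a description only. In B cells 3 of 110 tested genes rose (Phlpp1, Bcl6 and Fkbp5) and 2 fell (Lef1 and Tcf7), which is 4.55% against 2.55% of all genes. By direction, 1.57% of all genes rose and 0.98% fell. In CD8 T cells 1 of 104 rose (Pik3r5) and 1 fell (S1pr1), 1.92% against 2.2% of all genes (1.34% rose and 0.855% fell). None of 105 genes in CD4 T cells and none of 94 in Tregs passed edgeR's test, where 0.788% and 0.0789% of all genes rose and 0.302% and 0.0451% fell. At an unadjusted p under 0.05 there were 24 (22.9%) and 12 (12.8%), against 16.7% and 7.57% of all genes. DESeq2 called 10 of the pathway genes in B cells (3.47% of all genes), 2 in CD4 T cells (1.32%), 3 in CD8 T cells (1.34%) and 1 in Tregs (0.18%). The groups did not overlap for 60 of 110 genes in B cells (54.5% against 51.8% of all genes), 53 of 105 in CD4 T cells (49.4% of all genes), 55 of 104 in CD8 T cells (49.7%) and 41 of 94 in Tregs (37.1%).

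Among the 9 class I PI3K subunits, Pik3r5, the p101 subunit that couples PI3K gamma to G protein-coupled receptors, rose in CD8 T cells from 99.8 and 107 CPM to 138 and 146 CPM. Its log2 fold change was 0.45 (SE 0.08, edgeR quasi-likelihood test, adjusted p = 0.017). The call was lost without Control library 1 (0.40, edgeR adjusted p = 0.23) and with thinned cells (0.35, edgeR adjusted p = 0.28). In B cells it was at 21.6 and 18.5 (Control 1 and 2) against 29.2 and 27.4 CPM (EV 1 and 2, log2 0.49, edgeR adjusted p = 0.054), and in CD4 T cells at 77.7 and 91.1 CPM against 103 and 107 CPM (log2 0.31). The list's median log2 fold change was 0.14 in B cells, 0.02 in CD4 T cells, 0.09 in CD8 T cells and 0.11 in Tregs. Outside CD8 T cells its largest values were those of Pik3r6 in B cells (0.73), Pik3r2 in CD4 T cells (-0.42) and Pik3r3 in Tregs (-0.32), and none of these passed.

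Of 9 adaptors and activators of PI3K, 9, 7, 7 and 5 were tested in B, CD4 T, CD8 T and Treg gates, and none passed. Of those tested, 2, 3, 2 and 2 had an unadjusted p under 0.05, against 18.9%, 16.7%, 18.2% and 7.57% of all genes. The list's medians were -0.13, 0.09, 0.05 and 0.45 in the same order. The largest value in B cells was that of Gab1 (log2 2.20, edgeR adjusted p = 0.12), which was under 1 CPM in every library. Gab2 had the largest value in CD4 and CD8 T cells (log2 -1.53 and -1.47, edgeR adjusted p = 0.068 and 0.15). In CD4 T cells it was at 4.9 and 4.2 (Control 1 and 2) against 1.9 and 1.3 CPM (EV 1 and 2). In Tregs Pik3ap1, an adaptor of B cells, was at 11.7 and 5.3 (Control 1 and 2) against 30.1 and 34.1 CPM (EV 1 and 2, log2 1.87, edgeR adjusted p = 0.083), in the gate where B cell markers were also found, and it was at 286 to 351 CPM in the B cell gate.

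The list of PI3K antagonists held phosphatases and Pik3ip1, and also Pik3r4 and Trat1, a class III PI3K partner and a T cell adaptor that are not antagonists. Phlpp1, a phosphatase that acts on AKT, rose in B cells from 89.5 and 88.0 CPM to 224 and 142 CPM. Its log2 fold change was 1.05 (SE 0.18, edgeR quasi-likelihood test, adjusted p = 0.026), and EV library 1 was the higher of the EV libraries. It kept passing with the stricter gates (1.03) and with thinned cells (0.93), and did not without Control library 1 (edgeR adjusted p = 0.069) or Control library 2 (0.075). Without EV library 1 the value was 0.68. Phlpp1 in CD4 T cells was at 23.8 and 28.0 (Control 1 and 2) against 37.7 and 36.6 CPM (EV 1 and 2, log2 0.51, edgeR adjusted p = 0.063), and in Tregs its log2 fold change was 0.90 (edgeR adjusted p = 0.12), the largest in the list in both. In CD8 T cells the largest was Phlpp2 (-0.38). Inpp5d, the SHIP1 phosphatase that breaks down the lipid PI3K makes, was higher in both EV libraries of every class and was named after its values were seen. In CD4 T cells it was at 131 and 141 (Control 1 and 2) against 174 and 193 CPM (EV 1 and 2, log2 0.43, SE 0.09, edgeR adjusted p = 0.056), and in B cells at 387 and 479 CPM against 606 and 628 CPM (log2 0.51, edgeR adjusted p = 0.073). DESeq2 called it in both. The list's median log2 fold change was 0.25, 0.21, 0.11 and 0.12 in B, CD4 T, CD8 T and Treg gates, and 9, 6, 5 and 4 of its 9 genes did not overlap between groups, where 51.8%, 49.4%, 49.7% and 37.1% of all genes did not.

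In the lists of kinases and complexes no gene passed edgeR's test in any class. Of the 2 to 12 genes of a list tested in a class, 0 to 4 had an unadjusted p under 0.05. Over all genes 18.9%, 16.7%, 18.2% and 7.57% did in B, CD4 T, CD8 T and Treg gates. These lists were AKT and PDK1 with their substrates, the mTOR complex subunits, the TSC complex with RHEB, the mTORC1 brakes and energy sensors, the lysosomal amino acid sensors and the mTORC1 effectors. Their medians lay between -0.04 and 0.16 in B cells, -0.13 and 0.13 in CD4 T cells, -0.11 and 0.09 in CD8 T cells and -0.12 and 0.02 in Tregs. Eif4e, the cap-binding factor that mTORC1 frees for translation, was in CD8 T cells at 50.3 and 51.1 (Control 1 and 2) against 63.6 and 60.6 CPM (EV 1 and 2, log2 0.29, edgeR adjusted p = 0.091), the largest value of the effectors there. Rhebl1, a relative of RHEB, had the largest value of its list in CD8 T cells (log2 -0.77, edgeR adjusted p = 0.091), from 5.8 and 6.4 CPM to 3.3 and 3.8 CPM.

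Other large values of these 6 lists were as follows, and none passed. In B cells they were Gsk3b (0.25), Deptor (0.31), Tbc1d7 (-0.55), Sesn2 (0.65), Flcn (-0.24) and Rps6kb2 (-0.33). Those of CD4 T cells were Foxo4 (-0.29), Akt1s1 (-0.16), Tbc1d7 (-0.63), Ddit4 itself, Fnip2 (0.72) and Eif4ebp1 (-0.29). In CD8 T cells they were Deptor (0.97), Ddit4 and Fnip2 (0.96). In Tregs they were Foxo4 (-0.95), Akt1s1 (-0.60), Tsc1 (-0.14), Nprl3 (-0.97), Rragb (-0.50) and Rps6kb2 (-0.88). Several of these genes were at a few CPM or less.

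Of 16 genes listed as FOXO1 targets in lymphocytes, Bcl6 rose and Lef1 and Tcf7 fell in B cells. Bcl6, a repressor needed for the germinal centre, went from 142 and 123 CPM to 176 and 208 CPM (log2 0.53, SE 0.11, edgeR quasi-likelihood test, adjusted p = 0.0496), and was lost with the stricter gates (edgeR adjusted p = 0.056), without doublets (0.059), with DESeq2's size factors (0.051) and without either Control library (0.17 and 0.33). Lef1 and Tcf7 are T cell transcription factors, and in the B cell gate they went from 44.0 and 40.4 CPM to 24.1 and 26.2 CPM, and from 7.6 and 6.4 CPM to 3.3 and 1.8 CPM. Their log2 fold changes were -0.75 and -1.45 (edgeR adjusted p = 0.0081 and 0.039), and -0.29 and -0.49 with the stricter gates (edgeR adjusted p = 0.19 and 0.50). Both were also lost without Control library 1 and without doublets. The T cell markers of that gate fell as well, as given above, and the cause of these falls was not tested.

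S1pr1, the receptor that lets lymphocytes leave the node, fell in CD8 T cells from 332 and 287 CPM to 223 and 189 CPM (log2 -0.59, SE 0.10, edgeR quasi-likelihood test, adjusted p = 0.015). The call was lost without Control library 1 (-0.48, edgeR adjusted p = 0.10). It was also the list's largest value in CD4 T cells (393 and 313 CPM against 262 and 198 CPM, log2 -0.62, edgeR adjusted p = 0.070) and in Tregs (log2 -0.82, edgeR adjusted p = 0.059), where DESeq2 called it. Of the FOXO1 targets tested (16, 16, 16 and 15 in B, CD4 T, CD8 T and Treg gates), 8, 3, 10 and 8 had a positive log2 fold change. Klf2, a factor that keeps T cells quiescent and recirculating, had a log2 fold change of -0.12 in CD4 T cells, and Il7r, the receptor for the survival cytokine IL-7, had -0.08 in CD4 and 0.34 in CD8 T cells. Neither gene passed edgeR's test in the classes given, both were named after their values were seen, and DESeq2 called Il7r in CD8 T cells. The median of the list was 0.03 in B cells, -0.07 in CD4 T cells, 0.03 in CD8 T cells and 0.02 in Tregs.

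Ddit4 is also a member of both lists of induced genes. In that of amino acid and ATF4 targets no gene passed edgeR's test in any class. Of 11, 10, 9 and 8 genes tested in B, CD4 T, CD8 T and Treg gates, 1, 3, 3 and 0 had an unadjusted p under 0.05. The shares of all genes were 18.9%, 16.7%, 18.2% and 7.57% in the same order. The list's medians were 0.04, -0.02, 0.03 and -0.11, and Ddit4 had the largest value in CD4 and CD8 T cells. Slc7a11 did in B cells (1.14, at or under 1.1 CPM in every library) and Slc7a5 in Tregs (-0.55). In the list of glucocorticoid responsive genes Fkbp5, a chaperone that glucocorticoids induce, rose in B cells from 33.7 and 36.1 CPM to 52.7 and 60.4 CPM. Its log2 fold change was 0.70 (SE 0.10, edgeR quasi-likelihood test, adjusted p = 0.014), it held with the stricter gates (0.72) and thinned cells (0.62), and it was lost without Control library 1 (edgeR adjusted p = 0.088).

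Of the 9 tested genes of the glucocorticoid list, 6, 7, 6 and 8 had higher EV means in B, CD4 T, CD8 T and Treg gates. In the same order 6, 4, 5 and 1 had an unadjusted p under 0.05 in edgeR's test. Over all genes tested the shares with such a p were 18.9%, 16.7%, 18.2% and 7.57%. The genes did not all share 1 direction. Zfp36l2 had the largest value in B cells, at 97.9 and 148 (Control 1 and 2) against 251 and 179 CPM (EV 1 and 2, log2 0.81, edgeR adjusted p = 0.079). Tsc22d3, named after its values were seen, was in B cells at 112 and 205 (Control 1 and 2) against 285 and 245 CPM (EV 1 and 2, log2 0.74, edgeR adjusted p = 0.13), while Per1 was lower in both EV libraries of the same class (log2 -0.44). Control library 1 was the lowest of the 4 for Ddit4, Tsc22d3 and Zfp36l2 in B, CD4 T and CD8 T cells. The largest value was Klf9 in CD4 T cells (0.58) and Tregs (0.90), and Dusp1 in CD8 T cells (-0.70, edgeR adjusted p = 0.065). The median of the list was 0.28, 0.11, 0.09 and 0.26 in the 4 classes.

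**Figure D4:**
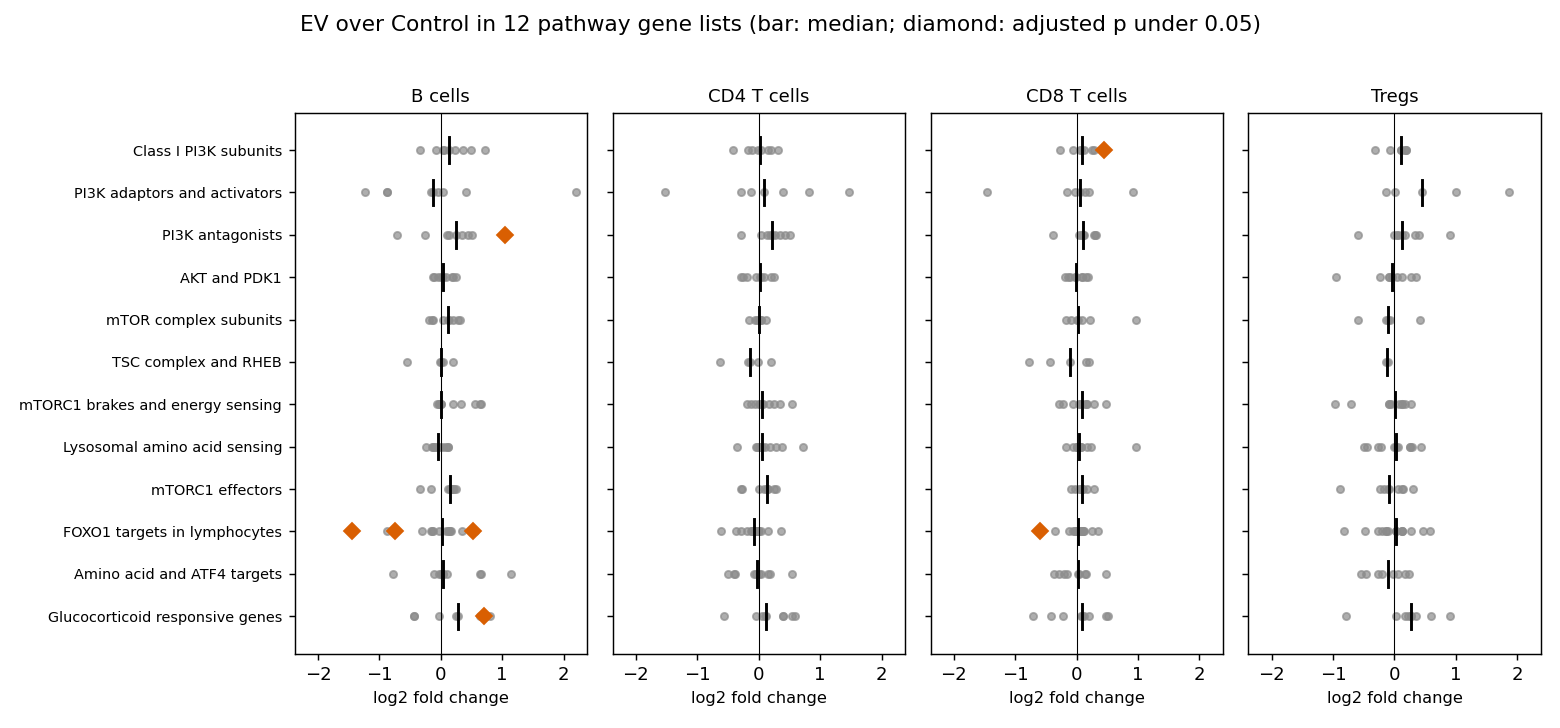
Log2 fold change of EV over Control for every tested gene of the 12 pathway lists, by class; grey points are genes, black bars list medians, and orange diamonds genes with an adjusted p under 0.05. The 7 diamonds are Phlpp1, Bcl6, Fkbp5, Lef1 and Tcf7 in B cells and Pik3r5 and S1pr1 in CD8 T cells, and the list medians lie between -0.13 and 0.45.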

How the data were processed

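Cells of draining lymph nodes were measured by 10x 3′ single-cell RNA sequencing (chemistry 3.1) in 2 Control and 2 EV libraries. The authors deposited raw UMI counts per gene and barcode, made with Cell Ranger 7.1.0 on mm10 (submitters' processing notes) and without normalization. Which annotation release was used, and how intronic reads were handled, is not given in the sources used here. Groups came from the labels. The paper's other experiments were not analysed here.

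Cells with 200 to 5000 genes, at most 20000 UMIs and under 10% mitochondrial UMIs were kept. They were gated as B cells (at least 1 Cd79a UMI, 0 of Cd3e), CD4 T cells (Cd3e and Cd4, no Cd8a or Cd79a), CD8 T cells (Cd3e and Cd8a, no Cd4 or Cd79a) and Tregs (Foxp3 and Cd3e, which may also be in the CD4 gate). No doublets were removed in the main setting. Counts were summed per library and class, because cells are not replicates, and compared by the two-sided quasi-likelihood test of edgeR (TMM, filterByExpr, Benjamini-Hochberg over all genes tested, adjusted p under 0.05). CPM values of single genes are scaled by TMM within a class. The summed CPM values of marker lists are shares of all UMIs of the class, without TMM. Differences of effects between classes were tested as an interaction over 16 sums of disjoint gates, with library as a block.

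Alternatives were DESeq2, its size factors, no filterByExpr, library sizes without abundant or stress genes, a replicate block, cells thinned to 1000 UMIs, other cell limits (no upper limits with 5% mitochondrial UMIs, or under 60% ribosomal), removal of Scrublet doublets (expected rate 6%), stricter gates, cells without Mki67, Top2a, Birc5 or Jchain, CD4 cells without Foxp3, and each library left out. Gates were set on the counts before thinning, so they still depended on depth, and cells under 1000 UMIs were left out of the thinned sums. Stricter gates and removal of cycling or plasma cells in the interaction fits were added after seeing the data. The scripts were tested on simulated data. The 9 genes, the 12 lists and the marker lists were chosen with earlier results of these data known. Named were the 9 genes, list genes past the threshold, the largest fold change per list and class (values of 2 list genes are not reported here), and the 2 most alike genes of each of 8 of the 9 (not Tsc2). Promoters are RefSeq windows of 250 bases (all 9 genes matched). The exact permutation test of 2 against 2 libraries cannot go below p = 0.33, and the shares of cells it was planned for are not reported here. Software was Python 3.11.15, scanpy 1.11.5, numpy 2.4.6, scipy 1.17.1, pandas 2.3.3, matplotlib 3.10.9, DESeq2 1.42.0, limma 3.58.1 and edgeR 4.0.16 under R 4.3.3.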

Additional observations from a re-analysis of the deposited data

Results flagged for a closer look

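The EV effect differed between B cells and a T cell class in 22 tests, for 14 of the 106 pathway genes tested and reported here, by edgeR's interaction test (adjusted p under 0.05). Of these, 11 were in B minus CD4 T cells and 11 in B minus CD8 T cells, where 1.7% and 1.49% of 14087 genes passed, with p-values adjusted over all genes tested. The lists were chosen with earlier results of these data known, so an excess over these shares is not a result of its own. Values are differences of log2 effects. Foxo1, the only one of the 9 genes among the 14, had 0.40 (B minus CD4) and 0.33 (B minus CD8).

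Genes with a higher EV effect in B cells were Sesn1 (0.60 and 0.62 against CD4 and CD8 T cells), Btg1 (0.25 against CD4), Ccr7 (0.36 against CD4), Zfp36l2 (0.69 and 0.71 against CD4 and CD8), Phlpp1 (0.74 against CD8), Bcl6 (0.46 against CD8) and Fkbp5 (0.48 against CD8). Those with a lower EV effect in B cells were Inpp4b (-0.68 and -0.39 against CD4 and CD8), Sesn3 (-0.37 against CD4), Cd28 (-1.32 and -1.27), Lef1 (-0.74 and -0.83), Tcf7 (-1.43 and -1.48) and Il7r (-0.78 and -1.23), the last 4 given against CD4 and then CD8 T cells. Cd28, Lef1, Tcf7 and Il7r are genes of T cells, and the 6 T cell markers summed to 96.2 and 83.3 CPM in the B cell gate of Control libraries and to 47.8 and 48.8 CPM in that of EV libraries. Cd28 is itself among these 6 markers, so its values and their sum are not separate observations. With the stricter gates, a setting chosen after seeing the data, 14 of the 22 differences still passed and 8 did not, and the 8 were those of these 4 genes. Their differences against CD4 and CD8 T cells were then 0.42 and 0.45 (Cd28), -0.26 and -0.36 (Lef1), -0.46 and -0.51 (Tcf7) and -0.39 and -0.86 (Il7r), with edgeR adjusted p between 0.071 and 0.91. In B cells these gates bar Cd3d, Cd3g and Trac, which are also among the 6 markers. The cause of the lost differences was not tested.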

How the results depend on the processing

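Of 529 fold changes of the 9 genes under alternatives, 33 changed sign (19 with a library left out, 14 otherwise), in 17 of 35 results, and the largest value reversed by another setting than a left-out library was 0.14 (log2, absolute) in the original setting. Members called by edgeR, 0 in each class, became 2 in B cells with DESeq2, 2 with thinned cells and 4 without filterByExpr (3.47%, 3.06% and 6.44% of all genes), and 1 in CD4 T cells and 1 in CD8 T cells without filterByExpr (3.89% and 4.24%). Leaving out 1 library gave 0 to 3 members in each of B, CD4 T and CD8 T cells (0.69% to 19.6%, 0.757% to 16.5% and 1.48% to 16.9% of all genes), with the lone library of an arm assumed to vary like the others, and 0 to 1 in the B minus CD4 and B minus CD8 contrasts, in the first of which thinned cells gave 0. Library numbers were shared between groups. The correlation of deviations between libraries of the same number was 0.03, 0.06, 0.11 and -0.06 in B, CD4 T, CD8 T and Treg gates. With only 2 pairs it cannot tell whether the numbers pair the libraries. With a replicate block edgeR called 3 members in B cells, 1 in CD4 T cells and 1 in CD8 T cells (8.91%, 6.6% and 8.29% of all genes), and 1182, 788, 1018 and 112 genes in the 4 classes in place of 338, 130, 270 and 11. Genes called also moved by over 1.5 times without filterByExpr (1392, 773, 857 and 154), with no upper limits (688 in B cells, 120 in CD8 T cells, 0 in Tregs), with the stricter gates (221, 158 and 2 in B cells, CD8 T cells and Tregs), with thinned cells (80 in CD8 T cells, 5 in Tregs), with DESeq2 (165 in CD8 T cells), without doublets (5 in Tregs), without cycling or plasma cells (81 in CD4 T cells, 0 in Tregs) and without Foxp3 cells (277 in CD4 T cells). Without Control 1, Control 2, EV 1 and EV 2 the B cell count was 97, 195, 2584 and 946. Without EV 1 and EV 2 it was 2077 and 852 in CD4 T cells and 2168 and 724 in CD8 T cells, and in Tregs any library left out gave 18 to 136. Differences called over all genes were 240 (B minus CD4), 210 (B minus CD8), 16 (CD8 minus CD4) and 21 (Treg minus CD4), and became 465, 430, 104 and 114 without filterByExpr, 66, 74, 3 and 1 with thinned cells, 94 and 107 in the first pair without Control 1, 150, 120 and 10 in the first pair and the last without Control 2, 27 and 61 in the second pair without EV 2, 26 in the third without doublets and 8 and 13 in the second pair without cycling or plasma cells. Signs reversed with thinned cells for Pik3r1 in B cells (-0.049), Akt1 and Rptor in CD4 T cells (-0.13 and -0.21), Mtor in CD8 T cells (0.019), Pik3cd, Rptor and Foxo1 in Tregs (0.44, 0.21 and 0.015) and the Foxo1 difference of CD8 and CD4 T cells (-0.078). They reversed with no upper limits for Pik3r1, Akt1 and Mtor in B cells (-0.0083, 0.055 and -0.016) and Pik3ip1 in CD4 T cells and Tregs (-0.021 and -0.023), for Tsc2 in B cells without filterByExpr (0.027) and for Rptor in Tregs with the stricter gates (0.075). With 1 library left out, the ranges that crossed 0 were -0.026 to 0.12 (Pik3r1), -0.021 to 0.089 (Mtor) and -0.12 to 0.11 (Tsc2) in B cells. In CD4 T cells they were -0.030 to 0.11 (Pik3r1), -0.071 to 0.15 (Pik3ip1), -0.045 to 0.11 (Akt1), -0.15 to 0.013 (Mtor) and -0.047 to 0.26 (Rptor), and in CD8 T cells -0.28 to 0.052 (Tsc2). In Tregs they were -0.14 to 0.0086 (Pik3cd), -0.25 to 0.57 (Pik3ip1), -0.23 to 0.027 (Akt1), -0.35 to 0.13 (Rptor), -0.12 to 0.021 (Foxo1) and -0.26 to 0.53 (Ddit4). The cause was not tested. Tregs held the fewest UMIs of the 4 classes, Tsc2 had 5 to 12 UMIs a library there, and thinned cells gave no value for Tsc2 in CD4 and CD8 T cells or for several of the 9 genes in Tregs.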
